A study of Mus musculus with 16 samples.

Results

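The data described here are the 8 Cy3 samples of mouse mast cells activated through their IgE receptor in the presence of control IgG, 4 taken at 16 h and 4 at 2 h. They were chosen by their labels from 16 arrays, which also hold 4 samples of resting, IgG-treated cells at each of the same times. The cells were bone marrow cells kept for more than 4 weeks in medium with 10% serum, 5 ng/ml IL-3 and 40 ng/ml SCF, and more than 90% of them carried both the IgE receptor and Kit. The study describes these cells as immature mast cells made in vitro. Activated cells had been sensitized with 5 ug/ml IgE against DNP during 1 h. They were then given 100 ng/ml of the antigen DNP-HSA together with 15 ug/ml nonspecific goat IgG, and RNA was taken 16 h or 2 h later. Resting cells received 15 ug/ml of the same goat IgG for 16 h or 2 h, with neither IgE nor antigen. The other dye of each array, Cy5, carried RNA of cells given an antibody against TIM-3 and is not used here, beyond its part in normalization. The comparison asks which transcripts had decayed and which had risen by 16 h after antigen, relative to 2 h. Whether replicates are distinct cultures or mice is not stated by the labels. The p-values therefore reflect the scatter of the arrays at hand, possibly of technical origin.

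Mast cells hold IgE on the receptor Fc-epsilon-RI. When antigen crosslinks that IgE, granules with histamine and proteases are released within minutes, arachidonic acid is turned into prostaglandins and leukotrienes, and transcription of cytokine and chemokine genes follows. The first genes to respond encode transcription factors of the EGR, FOS/JUN and NR4A families. Among the genes induced with them are feedback inhibitors, such as phosphatases that switch off MAP kinases and proteins that retain NF-kappaB in the cytoplasm. Many messenger RNAs of this response are short-lived.

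Between 53.7% and 62.1% of spots per array were well above background in the Cy3 channel, no spot was saturated on any array, and each array correlated with the mean of its group's other arrays at 0.996 or more across genes, which are not independent replicates. Values are log2 Cy3 intensities after background correction with an offset of 50 and normalization between arrays, which understates how far dim genes moved. Of the 13 mast cell markers, 4 rose, 1 fell and 8 did not pass the test. Their summed linear intensity was 489500 to 521000 on the 3 arrays at 16 h that held all 13 and 431100 to 485600 on the 4 arrays at 2 h. The other array at 16 h, replicate 1, lacks 2 of the 13, since the spots of Cpa3 and Cma1 were outliers there. Of 15 measured macrophage and dendritic cell markers, 4 rose and 1 fell, and their sum was 30880 to 87940 at 16 h and 30980 to 75930 at 2 h. The complement gene C1qa, the neutrophil genes Elane, Camp and Ngp, the eosinophil gene Epx, the T cell gene Cd3g and the collagen gene Col1a1 were well above background on 0 of the 8 activated arrays. Other members of the same marker lists were well above it on all 8: Lyz2, H2-Ab1, Adgre1, C1qb, S100a9, Mpo, Siglecf, Cd3e, Nkg7, Col1a2 and Acta2. So were the basophil marker Cd200r3 and the megakaryocyte marker Pf4. Several macrophage and dendritic cell markers were bright: Lyz2 averaged 14.86 at 16 h and 14.91 at 2 h, H2-Ab1 12.79 and 12.70, and Adgre1 12.17 and 11.21. Siglecf averaged 6.82 at 16 h and 10.07 at 2 h, Nkg7 6.75 and 8.92, and Acta2 13.63 and 14.17. The part of other cell types in the results was not tested, and in bulk RNA fewer cells of a type and less RNA per cell cannot be told apart. The arrays lay on 4 slides, and 1 slide held activated cells of both times, with 1 array at 16 h and 2 arrays at 2 h.

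Activated cells differed widely between the times. Of 16213 genes tested, 10182 passed the test (62.8%): 5749 were higher at 16 h (35.5%) and 4433 were lower (27.3%). The test was limma's moderated test over 16 arrays with a Benjamini-Hochberg adjusted p under 0.05. Counts of rises and falls in activated cells within the gene lists below stand against these shares of 35.5% and 27.3%. Those in resting cells stand against 25.4% higher and 24.1% lower. Changes of at least 2-fold were reached by 1041 of the higher genes (6.42%) and 692 of the lower genes (4.27%). In 9990 genes (61.6%) the 4 values at 16 h and the 4 at 2 h did not overlap, and the median change over all genes was 0.04 on the log2 scale. Resting cells kept for the same times also changed, in 8031 genes (49.5%): 4116 genes were higher at 16 h (25.4%) and 3915 were lower (24.1%), with 401 and 246 of them at least 2-fold (2.47% and 1.52%). The change over time differed between activated and resting cells in 5721 genes (35.3%), 3545 in the positive direction (21.9%) and 2176 in the negative direction (13.4%). Of those, 181 (1.12%) and 315 (1.94%) were at least 2-fold. With the Cy3 channel used alone and centred on its median, the calls fell to 5272 in activated cells, 2701 in resting cells and 710 for the difference. Of the 5272, 55.8% were higher. List counts under that centring stand against this smaller total, not against 35.5% and 27.3%. The positive share of the calls for the difference was then 15.9%, against 62.0% in the values used here, and the positive share in resting cells was 75.3% against 51.3%. Under that centring the median difference over all genes was -0.05, against 0.06 here.

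**Figure D1:**
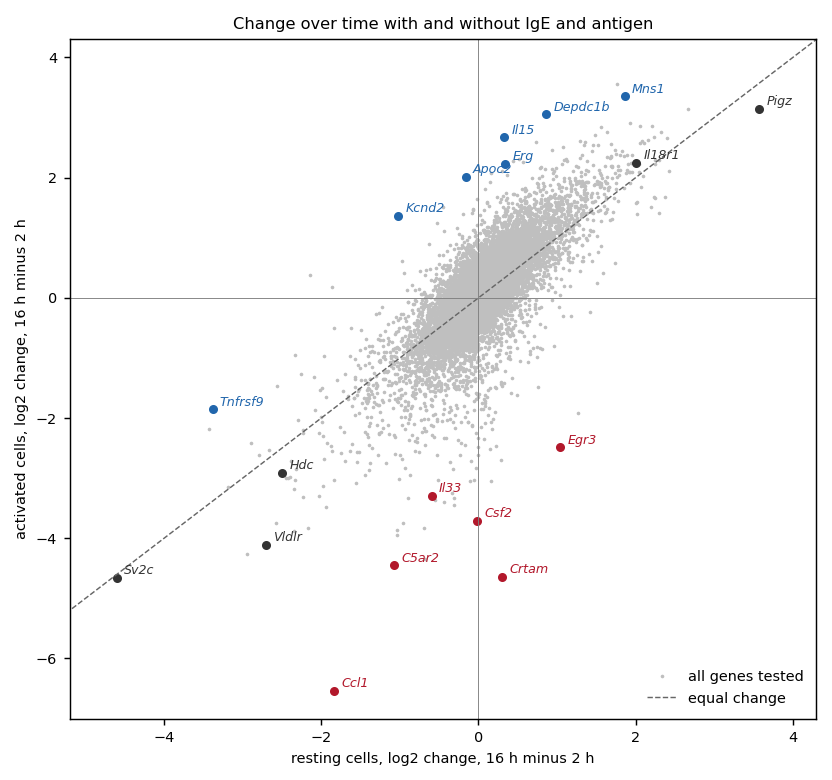
Log2 change, 16 h minus 2 h, in activated cells (vertical) against that in resting cells (horizontal), one point per gene tested, with 18 genes labelled and a dashed line where both are equal. Ccl1, at -6.54 in activated cells and -1.84 in resting cells, lies lowest, Crtam and Egr3 lie far below the line, and Il15, Depdc1b and Kcnd2 lie above it.

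Several cytokines of the late phase of the mast cell response were above background in activated cells at 2 h but not at 16 h. On the list of type 2 and haematopoietic cytokines 9 members were tested and all 9 were called lower at 16 h, with a median of -2.07, against 0.04 for all genes. Of these, Csf2, Il2, Il3, Il5 and Il31 entered the test only through their signal in activated cells at 2 h, where they are high. They had to differ, so the count and the median describe the list and support nothing, and no p-value is given for these 5 genes. With probes required to be above background on all 16 arrays, 3 members were called lower. Csf2, which encodes the growth factor GM-CSF, had log2 intensities of 6.30, 6.53, 6.53 and 6.30 at 16 h and 10.08, 10.40, 9.95 and 10.08 at 2 h. All 16 h values lay below every 2 h value, and Csf2 was above background on only 2 of the 4 arrays at 16 h. It fell by 3.71 on the log2 scale. In resting cells Csf2 was above background on 0 of 4 arrays at 16 h and 0 of 4 at 2 h, so no change is given there. Il13, a cytokine that drives mucus production and airway narrowing, measured 6.72, 6.73, 6.64 and 6.49 at 16 h and 8.68, 8.87, 8.62 and 8.69 at 2 h. The groups were well apart, and Il13 changed by -2.07 (SE 0.07, adjusted p = 2.41e-13). Il4, which steers T helper cells and the switch to IgE, measured 10.22, 10.35, 10.22 and 10.26 at 16 h and 11.91, 11.90, 11.78 and 11.84 at 2 h. Its change was -1.59 (adjusted p = 4.12e-11), against 0.01 in resting cells. Il33, Il2 and Il3 were above background on all 4 arrays at 2 h and on none at 16 h. Their changes are therefore bounds. Il33, an alarm cytokine of the IL-1 family, was at least 8.86-fold lower (adjusted p = 8.57e-16). Il2 was at least 7.03-fold lower and Il3 at least 4.05-fold lower. A dimmer probe of Il2 fell by 1.09. A bound sets the 2 h mean against, on each 16 h array, the higher of the dimmest signal well above background and the gene's own value.

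**Figure D2:**
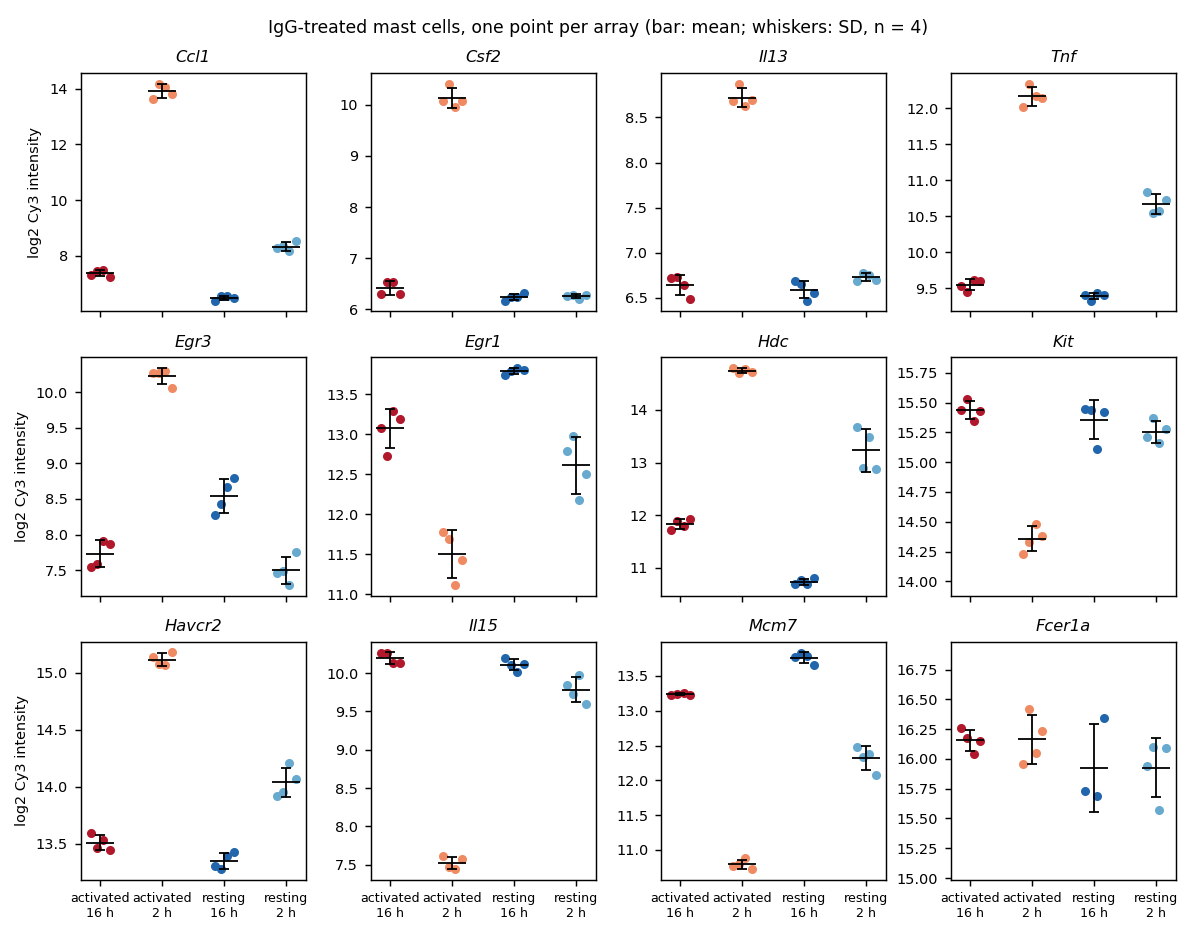
Log2 Cy3 intensity of 12 genes on each array, from left to right in activated cells at 16 h and 2 h and in resting cells at 16 h and 2 h, with the mean as a bar and the SD as whiskers (n = 4, or 3 where an outlier spot was left out). Ccl1, Csf2, Il13, Tnf, Egr3, Hdc and Havcr2 are lower at 16 h than at 2 h in activated cells, Egr1, Kit, Il15 and Mcm7 are higher, and the values of Fcer1a overlap.

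Inflammatory cytokines and ligands of the TNF family behaved less evenly. Of 16 tested, 10 fell, 2 rose and 4 did not pass, against 27.3% lower and 35.5% higher over all genes. Their median was -0.23, and 8 fell and 2 rose in resting cells, where 24.1% and 25.4% of all genes did. Il1a entered the test only through activated cells at 2 h, so its part of the count supports nothing. Tnf measured 9.53, 9.45, 9.62 and 9.60 at 16 h and 12.02, 12.34, 12.17 and 12.15 at 2 h in activated cells. The 16 h values were all lower, and the change was -2.62 (SE 0.07, adjusted p = 4.34e-14), against -1.28 in resting cells (adjusted p = 5.73e-10). The difference between those changes was -1.34 (adjusted p = 6.69e-08). Il6, a cytokine of fever and the acute phase, stayed bright, at 12.87, 12.95, 13.14 and 12.93 at 16 h and 13.69, 13.74, 13.66 and 13.48 at 2 h. It fell by 0.67 (adjusted p = 5.64e-07) with no overlap of the groups, and the difference from its change in resting cells, -0.43, did not pass the test (adjusted p = 0.0831). Tnfsf14, the ligand LIGHT, changed by -1.83 and Tnfsf10, the death ligand TRAIL, by -1.29. Osm, encoding oncostatin M, went the other way: its values were 11.02, 10.95, 10.96 and 10.91 at 16 h and 9.78, 9.53, 9.52 and 9.71 at 2 h, a rise of 1.32 (adjusted p = 9.46e-11) with no overlap.

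Among chemokines, which draw leukocytes into tissue, 11 of 21 fell, 3 rose and 7 did not pass, with a median of -0.77. The replicate numbers pair the arrays, and with the number as a block 15 fell and 5 rose. That fit called 10689 of all genes, 56.1% of them higher. In 15 chemokines the 16 h array was lower in all 4 pairs and in 5 it was higher. Over all tested genes these shares were 32.6% and 40.1%. With the slide as a block, or without replicate 1 at 16 h, 1 rose. Cxcl1 and Xcl1 entered the test only through activated cells at 2 h, and Ccl8 and Ccl12 only through activated cells at 16 h, so the counts include members whose entry rested on 1 group. Ccl1, a ligand of the receptor CCR8, showed the largest fall of all tested genes. It measured 7.31, 7.45, 7.49 and 7.25 at 16 h and 13.62, 14.17, 14.06 and 13.83 at 2 h, so every 16 h array was far below every 2 h array. It was 93.2-fold lower at 16 h (log2 change -6.54, SE 0.10, adjusted p = 6.12e-16), and it also fell in resting cells, by 1.84. Ccl7, a monocyte attractant, measured 11.00, 10.36, 10.66 and 10.66 at 16 h and 13.34, 13.52, 13.57 and 13.26 at 2 h, a change of -2.75 (adjusted p = 8.67e-11). Xcl1, also called lymphotactin, was above background only at 2 h and was at least 4.68-fold lower at 16 h. The neighbouring genes for the macrophage inflammatory proteins moved by unequal amounts: Ccl4 changed by -1.84 (adjusted p = 2.40e-05) and Ccl3 by -0.70 (adjusted p = 3.84e-04). Ccl4 varied widely at 16 h, with 12.49, 11.18, 12.01 and 11.77, against 13.80, 13.65, 13.79 and 13.57 at 2 h, and the groups still did not overlap. Ccl2, the chief monocyte chemokine, was one of the 3 that rose. It measured 15.67, 15.48, 15.64 and 15.64 at 16 h and 15.11, 14.99, 15.10 and 14.87 at 2 h, a rise of 0.59 (adjusted p = 5.71e-07) with no overlap. Its change in resting cells was 0.01. With the Cy3 channel alone and median centring the rise of Ccl2 was 0.41 and did not pass (adjusted p = 0.127), and under that setting 0 chemokines were called higher.

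Transcription factors of the immediate early class fell in the majority: of 36 tested, 23 fell, 7 rose and 6 did not pass. Over all genes 27.3% fell and 35.5% rose. The median of the list was -0.68 in activated cells and -0.03 in resting cells. Egr4, Irf4 and Nr4a3 entered the test only through activated cells at 2 h, so their part of the count supports nothing. The EGR family was split. Egr3 measured 7.54, 7.59, 7.92 and 7.88 at 16 h and 10.27, 10.27, 10.29 and 10.05 at 2 h, a change of -2.49 (adjusted p = 2.60e-11), although it rose in resting cells by 1.04 (adjusted p = 2.31e-06). A dimmer probe of Egr3 fell by 0.38. Egr2 fell by 2.08 (adjusted p = 1.29e-07), against 0.08 in resting cells. Egr1, the founding member, had 13.08, 12.73, 13.29 and 13.19 at 16 h and 11.78, 11.69, 11.12 and 11.43 at 2 h. All 16 h values were higher, a rise of 1.57 (SE 0.16, adjusted p = 3.33e-07). It rose by 1.18 in resting cells, and the difference of 0.39 did not pass (adjusted p = 0.222). Nab2, a corepressor of EGR proteins, fell by 2.96 (adjusted p = 4.33e-14). Fos had values of 8.02, 7.54, 7.82 and 7.83 at 16 h and 7.23, 6.94, 7.04 and 7.13 at 2 h, which did not overlap. It rose by 0.71 (adjusted p = 6.71e-05), whereas it fell in resting cells by 0.50 (adjusted p = 0.00244). Nr4a1, an orphan nuclear receptor induced by calcium signals, fell by 1.48 in activated cells and rose by 0.76 in resting cells (adjusted p = 1.18e-09 and 7.79e-06). Nfil3, a leucine zipper factor, fell by 2.35 (adjusted p = 4.16e-13), with a resting change of 0.07.

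Among feedback inhibitors of the same pathways more members fell than rose. Of 14 MAP kinase phosphatases and related inhibitors, 8 fell and 3 rose (median -0.49). Of 23 inhibitors of NF-kappaB and factors of mRNA decay, 13 fell and 3 rose (median -0.42). Over all genes 27.3% fell and 35.5% rose. Errfi1, an inhibitor of EGF receptor signalling, measured 9.63, 9.73, 9.94 and 10.11 at 16 h and 12.29, 12.59, 12.71 and 12.57 at 2 h. It fell by 2.69 (adjusted p = 2.06e-10), against a change of 0.29 in resting cells. Dusp2, a nuclear phosphatase of MAP kinases, fell by 2.55 (adjusted p = 6.12e-11) and Spry2, a Sprouty inhibitor of receptor tyrosine kinases, by 1.97 (adjusted p = 5.41e-10), with no overlap in either. A dimmer probe of Spry2 fell by 0.40. Nfkbia, the inhibitor that holds NF-kappaB in the cytoplasm, measured 12.11, 11.86, 12.22 and 12.34 at 16 h and 13.71, 13.52, 13.54 and 13.73 at 2 h. It fell by 1.49 (adjusted p = 3.02e-08), against -0.17 in resting cells. Relb, an NF-kappaB subunit, fell by 1.55 (adjusted p = 5.49e-11), and Tnip3, an inhibitor acting upstream of NF-kappaB, by 2.11 (adjusted p = 3.95e-12). The genes that restrain or follow STAT5, the transducer of IL-3, were divided, with 6 of 13 higher and 6 lower. Socs1 rose by 0.91 (adjusted p = 1.56e-07), Socs2 by 0.86 (adjusted p = 1.17e-07) and the kinase Pim2 by 1.57 (adjusted p = 3.33e-10), which also rose by 2.01 in resting cells.

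The promoters of a cytokine gene and a feedback gene that fell are shown because both hold the motif searched for NF-kappaB (GGANTTTCC on either strand, with capitals marking each match). They are RefSeq sequences of the GRCm38.p6 build, 5′ to 3′ on the gene's strand, with 250 bases before and 50 after the annotated start, for Il13 at chr11:53634653-53634952 on the minus strand and for Nfkbia at chr12:55492598-55492897 on the minus strand.
Il13: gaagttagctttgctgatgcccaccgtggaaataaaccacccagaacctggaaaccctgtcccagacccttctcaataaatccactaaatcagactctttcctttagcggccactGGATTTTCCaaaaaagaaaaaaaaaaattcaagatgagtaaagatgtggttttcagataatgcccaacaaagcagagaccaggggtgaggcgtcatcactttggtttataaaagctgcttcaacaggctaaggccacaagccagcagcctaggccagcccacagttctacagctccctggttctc
Nfkbia: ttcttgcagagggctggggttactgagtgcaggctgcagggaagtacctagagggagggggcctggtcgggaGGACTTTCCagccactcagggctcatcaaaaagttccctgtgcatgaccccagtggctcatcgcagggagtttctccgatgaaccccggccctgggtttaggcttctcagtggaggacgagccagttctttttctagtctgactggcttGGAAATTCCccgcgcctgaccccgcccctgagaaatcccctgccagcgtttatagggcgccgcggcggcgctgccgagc
The match in Il13 begins 135 bases before the start, and those in Nfkbia begin 178 and 29 bases before it. Of the 504 genes that fell at least 2-fold and have a promoter in the table, 9 (1.79%, Wilson 95% interval 0.942% to 3.36%) held this motif, against 142 of 10780 tested genes (1.32%). The Egr motif GCGTGGGCG was in 1.98% of the promoters of those that fell and 1.18% of all, the AP-1 motif TGANTCA in 5.95% and 5.39%, and the CRE motif TGACGTCA in 2.58% and 3.07%. For each of these motifs the interval of the falling genes held the share of all tested genes. A match is a description of letters, not a bound site.

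Several secreted and membrane proteins outside the cytokine lists were among the deepest falls. Crtam, a receptor of the immunoglobulin family, measured 7.11, 7.34, 7.34 and 7.21 at 16 h and 11.71, 12.14, 11.91 and 11.79 at 2 h. It was 24.9-fold lower (adjusted p = 6.25e-16) and rose by 0.31 in resting cells. The difference of -4.94 was the most negative among genes without a provisional name whose activated groups did not overlap. C5ar2, a receptor for the complement fragment C5a, fell by 4.45 (adjusted p = 6.25e-16), with values of 6.64, 6.94, 6.65 and 6.68 at 16 h and 11.15, 11.16, 11.20 and 11.20 at 2 h that were far apart. Rgs16, which shortens signals of G-protein-coupled receptors, fell by 4.35 (adjusted p = 1.54e-13), and Ptpn22, a phosphatase acting on Src family kinases, by 3.04 (adjusted p = 1.92e-14). Sphk1, which makes sphingosine 1-phosphate, fell by 2.47 (adjusted p = 5.92e-07), and a dimmer probe changed by -1.62. Plau, the urokinase that activates plasminogen, rose by 1.18 (adjusted p = 6.86e-12). Of 13 growth factors and members of the TGF-beta family, 11 fell and 1 rose (27.3% and 35.5% over all genes), with a median of -0.82. Areg entered the test only through activated cells at 2 h, so its part of the count supports nothing. With probes required to be above background on all 16 arrays, 6 of the growth factors were called lower. Fst, the activin antagonist follistatin, measured 6.76, 6.67, 6.70 and 6.70 at 16 h and 10.35, 10.45, 10.36 and 10.67 at 2 h, a change of -3.75 (adjusted p = 6.07e-14). Vegfa, which stimulates vessel growth, fell by 1.91 (adjusted p = 9.07e-12), and Hbegf, a ligand of the EGF receptor, by 2.16 (adjusted p = 3.58e-12). Sv2c, a synaptic vesicle protein, fell by 4.66 (adjusted p = 2.84e-15), with 7.12, 7.23, 7.21 and 7.24 at 16 h and 11.64, 11.80, 12.03 and 11.95 at 2 h. It fell by 4.60 in resting cells, and the difference of -0.05 did not pass the test (adjusted p = 0.8).

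The IgE receptor itself was measured at a high level at both times. Fcer1a, its IgE-binding alpha chain, had 16.26, 16.18, 16.04 and 16.15 at 16 h and 15.96, 16.42, 16.05 and 16.23 at 2 h. The groups overlapped, with a change of -0.01 (SE 0.15, adjusted p = 0.968). Ms4a2, the beta chain that amplifies its signal, measured 13.48, 13.56, 13.52 and 13.57 at 16 h and 12.74, 12.67, 12.58 and 12.60 at 2 h. It rose by 0.88 (adjusted p = 1.46e-09), against 0.34 in resting cells. Over the 29 tested genes of the receptor and its signalling, 13 rose and 10 fell, against 35.5% and 27.3% over all genes. Fcgr3, the low-affinity IgG receptor, rose by 1.52 (adjusted p = 1.06e-11). The kinase Fyn fell by 1.95 (adjusted p = 1.17e-12), and the calcium channel Orai1 fell by 1.48 (adjusted p = 1.06e-12). Kit, the receptor of SCF, measured 15.44, 15.53, 15.35 and 15.43 at 16 h and 14.23, 14.33, 14.48 and 14.38 at 2 h. All 16 h values were higher, a rise of 1.08 (SE 0.08, adjusted p = 3.10e-09), and the change in resting cells was 0.10. The difference was 0.98 (adjusted p = 4.12e-06). Il18r1, the receptor of IL-18, rose by 2.25 in activated cells and by 2.01 in resting cells (adjusted p = 2.15e-14 and 4.91e-13).

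Of 16 tested genes of the TIM family, inhibitory receptors and their ligands, 7 fell and 4 rose, against 27.3% and 35.5% over all genes. Cd80 entered the test only through activated cells at 16 h, so its part of the count supports nothing. Havcr2, which encodes TIM-3, had 13.59, 13.46, 13.54 and 13.45 at 16 h and 15.14, 15.07, 15.07 and 15.18 at 2 h. The 16 h values were all lower, a change of -1.60 (SE 0.06, adjusted p = 1.73e-12), and a dimmer probe fell by 2.56. It also fell in resting cells, by 0.69, and the difference was -0.92 (adjusted p = 7.14e-07). Pdcd1lg2, the PD-1 ligand PD-L2, changed by -1.80 in activated and -1.61 in resting cells, and Cd300a, an inhibitory receptor of mast cells, by -1.03 and -0.92, while a dimmer probe of Cd300a fell by 0.41 in activated cells. The difference between activated and resting cells did not pass for either (adjusted p = 0.22 and 0.477). Tnfrsf9, the costimulatory receptor 4-1BB, fell by 1.85 in activated cells and by 3.38 in resting cells, and it is uncertain, since a dimmer probe changed by 0.13 in activated cells.

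The machinery of preformed and lipid mediators was divided between rises and falls. Hdc, which makes histamine, measured 11.71, 11.89, 11.80 and 11.93 at 16 h and 14.79, 14.71, 14.78 and 14.71 at 2 h. It was 7.54-fold lower (adjusted p = 1.58e-11), fell by 2.50 on the log2 scale in resting cells, and the difference of -0.42 did not pass (adjusted p = 0.107). Ndst2, which sulfates heparin, measured 14.14, 14.04, 13.96 and 14.02 at 16 h and 12.55, 12.70, 12.72 and 12.59 at 2 h, a rise of 1.40 (adjusted p = 2.08e-11). Ptgs2, the inducible cyclooxygenase, measured 6.82, 6.37, 6.50 and 6.65 at 16 h and 10.14, 9.69, 10.00 and 9.84 at 2 h. It fell by 3.33 (adjusted p = 4.41e-12) and was above background on 3 of the 4 arrays at 16 h. Ptgs1, the constitutive cyclooxygenase, changed by -1.00 in activated and -1.11 in resting cells. Hpgds, which makes prostaglandin D2, rose by 0.79 (adjusted p = 3.44e-08), and Lta4h, which makes leukotriene B4, by 1.11 (adjusted p = 5.72e-05). Of 13 genes of eicosanoid synthesis, 5 rose and 5 fell, against 35.5% and 27.3% over all genes.

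Of 15 granule proteases, 4 rose, 4 fell and 7 did not pass, against 35.5% higher and 27.3% lower over all genes tested. Their median was 0.01 and the changes lay between -0.92 and 0.43. Without replicate 4 at 2 h or replicate 4 at 16 h 1 protease was called higher, and without replicate 1 at 2 h or replicate 1, 2 or 3 at 16 h 2 were. The 3 abundant proteases Cpa3, Cma1 and Tpsb2 changed by 0.07, 0.16 and 0.23. Of these Tpsb2, a tryptase, passed the test (adjusted p = 0.0452), and it no longer passed under 11 of the alternatives, leaving out activated replicate 1 or 4 at 2 h or replicate 1 or 2 at 16 h among them. Cma1 passed without activated replicate 3 at 2 h (0.20), without replicate 2 at 16 h (0.22) and with the slide as a block (0.25). Cpa3 and Cma1 turned to negative values, which did not pass, when Agilent's processed signal was used. The spot of Cpa3 and that of Cma1 in replicate 1 at 16 h were outliers and were left out. With median centring of the Cy3 channel alone, 0 proteases were called higher and 1 lower. Genes of exocytosis were higher in 14 of 22 and lower in 4, with 5 higher under that centring. Rab27a, a GTPase that docks granules, measured 8.94, 9.16, 9.06 and 9.03 at 16 h and 7.42, 7.64, 7.76 and 7.35 at 2 h, a rise of 1.51 (adjusted p = 9.31e-09), while a dimmer probe rose by 0.25. Unc13d, which primes granules for fusion, rose by 1.18 (adjusted p = 4.93e-11), against 0.24 in resting cells. The SNARE proteins Stx6 and Stx11 changed by -1.44 and -1.07 (adjusted p = 4.39e-11 and 8.12e-12), and a dimmer probe of Stx6 fell by 0.92. Of 31 genes of lysosomes and secretory granules, 14 rose and 6 fell, with 6 and 2 under that centring. Over all genes 5272 passed under that centring, 55.8% of them higher. With the replicate number as a block, 19 genes of the lysosome list rose and 6 fell. Manba, a lysosomal mannosidase, rose by 1.26 (adjusted p = 2.96e-12), and Mcoln1, a lysosomal calcium channel, by 1.04 (adjusted p = 4.85e-10).

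Genes of cell division were higher at 16 h almost throughout. Of 35 genes of DNA replication and S phase, 34 rose and 0 fell, with a median of 1.47. Of 31 genes of mitosis, 29 rose and 1 fell, with a median of 1.30. The exceptions, named after their values were seen, were Pcna at -0.12 and Cdc20 at 0.16, which did not pass, and Cenpa, which fell by 0.96. In resting cells 35 and 30 of these genes rose (25.4% over all genes), with medians of 1.04 and 0.96. The change in activated cells was higher than in resting cells in 22 of the S-phase genes and 17 of the mitosis genes (background 21.9%). It was lower in 1 of each (background 13.4%). These counts were not recomputed with the Cy3 channel alone and median centring, where 15.9% of all calls for the difference were positive. At 16 h, 31 and 30 of them were lower in activated than in resting cells (background 7.59%), with medians of -0.39 and -0.58. At 2 h, 34 and 29 were lower (background 29.1%), with medians of -0.71 and -0.93. Tk1, which salvages thymidine, measured 10.91, 10.93, 10.78 and 10.84 at 16 h and 8.24, 8.20, 8.25 and 8.05 at 2 h, a rise of 2.68 (SE 0.08, adjusted p = 1.18e-13). Mcm7, a subunit of the replicative helicase, measured 13.23, 13.25, 13.25 and 13.23 at 16 h and 10.77, 10.80, 10.88 and 10.73 at 2 h. The groups were far apart, and it rose by 2.45 in activated and 1.45 in resting cells (adjusted p = 5.74e-14 and 9.18e-11). Rrm2, a subunit of ribonucleotide reductase, rose by 2.29 and 2.25, and the difference of 0.04 did not pass (adjusted p = 0.835). Mki67, the proliferation antigen Ki-67, measured 12.66, 12.52, 12.39 and 12.46 at 16 h and 10.77, 10.46, 10.40 and 10.39 at 2 h, a rise of 2.00 (adjusted p = 4.41e-12). Ccna2, encoding cyclin A2, rose by 1.88 (adjusted p = 3.11e-11), and the mitotic kinase gene Aurkb by 1.92 (adjusted p = 9.84e-12). Gadd45b, a stress protein that slows the cell cycle, fell by 3.03 (adjusted p = 5.35e-11), with 10.69, 10.18, 10.46 and 10.55 at 16 h and 13.48, 13.55, 13.49 and 13.47 at 2 h.

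Promoters of a DNA replication gene, a transcription factor of S phase and the Ki-67 gene are shown because these genes rose together. The sequences hold the E2F motif (TTTGGCG) or CCAAT boxes (CCAAT), searched on both strands and printed in capitals. They are RefSeq sequences of GRCm38.p6 with the same window as above, for Mcm10 at chr2:5012742-5013041 on the minus strand, for E2f2 at chr4:136172024-136172323 on the plus strand and for Mki67 at chr7:135716330-135716629 on the minus strand.
Mcm10: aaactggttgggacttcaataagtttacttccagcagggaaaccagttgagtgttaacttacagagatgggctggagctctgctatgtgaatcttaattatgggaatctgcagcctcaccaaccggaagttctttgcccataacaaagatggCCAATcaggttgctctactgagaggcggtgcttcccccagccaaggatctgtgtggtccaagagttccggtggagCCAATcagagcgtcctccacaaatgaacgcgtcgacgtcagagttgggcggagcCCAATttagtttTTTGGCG
E2f2: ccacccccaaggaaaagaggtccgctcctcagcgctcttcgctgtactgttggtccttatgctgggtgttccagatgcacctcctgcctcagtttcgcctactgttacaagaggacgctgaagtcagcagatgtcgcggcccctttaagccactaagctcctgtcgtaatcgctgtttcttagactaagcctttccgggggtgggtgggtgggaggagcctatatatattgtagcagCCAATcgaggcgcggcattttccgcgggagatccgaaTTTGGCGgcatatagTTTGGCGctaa
Mki67: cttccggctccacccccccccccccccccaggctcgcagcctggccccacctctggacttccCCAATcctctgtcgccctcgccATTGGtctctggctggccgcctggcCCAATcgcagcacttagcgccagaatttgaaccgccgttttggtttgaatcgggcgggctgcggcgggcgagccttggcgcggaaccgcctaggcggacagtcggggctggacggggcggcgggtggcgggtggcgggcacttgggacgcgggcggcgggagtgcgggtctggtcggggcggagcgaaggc
Mcm10 rose by 2.38 and E2f2 by 2.66 (adjusted p = 1.32e-10 and 1.28e-14). Of the 787 promoters of genes that rose at least 2-fold, 368 held a CCAAT box (46.8%, Wilson 95% interval 43.3% to 50.2%), against 4140 of 10780 (38.4%). The E2F motif was in 29 of the 787 (3.68%, interval 2.58% to 5.24%), against 271 of 10780 (2.51%). Within the division lists, 7 of 29 S-phase promoters held the E2F motif (24.1%, interval 12.2% to 42.1%), and 21 of 25 mitosis promoters held a CCAAT box (84.0%, interval 65.3% to 93.6%). None of these shares was tested. Some motifs lie in the bases after the start, and without those bases the E2F share of the rising genes was 2.29%.

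**Figure D3:**
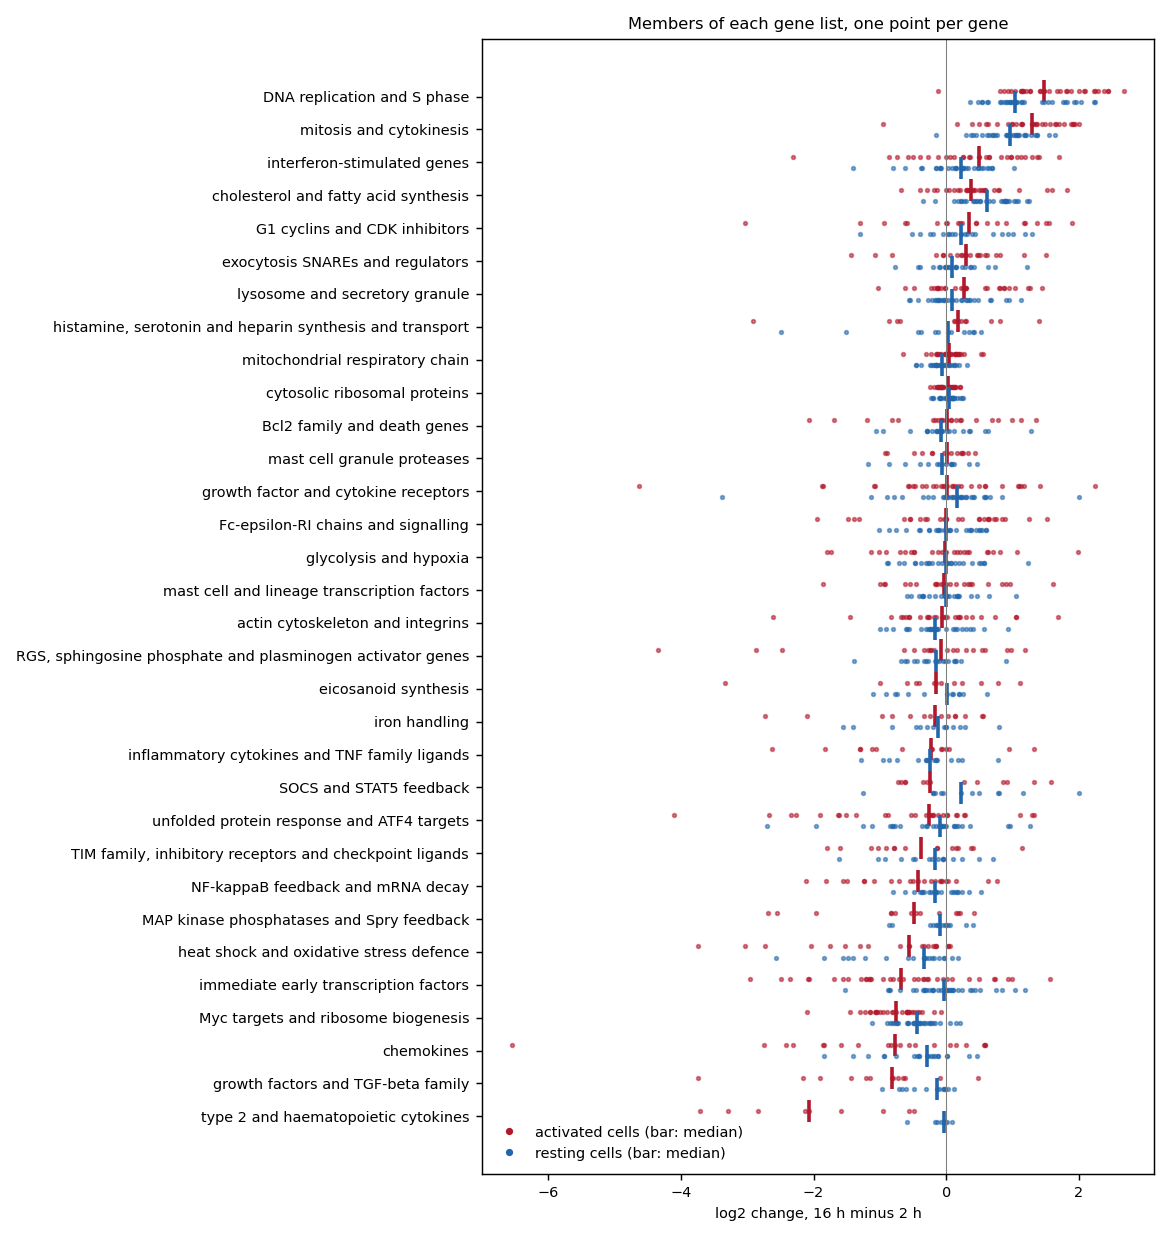
Log2 change, 16 h minus 2 h (horizontal), of each tested member of 32 gene lists, with activated cells above and resting cells below in each row and a bar at each median. The lists of DNA replication and mitosis lie at the top, with medians of 1.47 and 1.30 in activated cells, and the type 2 cytokine list, 5 of whose 9 members entered the test only through activated cells at 2 h, lies at the bottom, at -2.07.

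Gene lists of growth and stress metabolism held more falls than rises, though few cytosolic ribosomal protein genes passed the test. Of 31 targets of Myc and factors of ribosome biogenesis, 30 fell and 0 rose (median -0.76). In resting cells 27 of them fell (median -0.43), against 24.1% of all genes. With the Cy3 channel alone and median centring, 19 were called lower. Tfrc, the transferrin receptor that brings iron into cells, measured 8.30, 8.12, 8.38 and 8.50 at 16 h and 10.41, 10.45, 10.42 and 10.42 at 2 h, a change of -2.10 (adjusted p = 1.18e-12). Rrp12, a factor of ribosome export, fell by 1.44 (adjusted p = 1.52e-09). The 31 cytosolic ribosomal proteins had a median of 0.02, with 1 higher and 2 lower. Agilent's processed signal gave 0 higher and 10 lower for them. Of 21 genes of heat shock and oxidative defence, 15 fell and 0 rose (median -0.56). In resting cells 16 of them fell, against 24.1% of all genes. Hspa1a, an inducible HSP70 chaperone, measured 8.12, 8.04, 8.05 and 8.11 at 16 h and 12.01, 11.38, 11.99 and 11.90 at 2 h. It fell by 3.74 (adjusted p = 2.58e-13), and other probes of it changed by -3.70, -2.62 and -0.68. Probes for Hspa1a can bind transcripts of its near-identical neighbour, so the gene is uncertain. Srxn1, which repairs peroxiredoxins, fell by 3.04 (adjusted p = 1.00e-10), while its dimmer probes changed by -4.04 and -4.16. Hmox1, which degrades haem, fell by 2.73 (adjusted p = 1.40e-10). Of 30 genes of the unfolded protein response and ATF4 targets, 19 fell and 4 rose. Phgdh, the entry enzyme of serine synthesis, fell by 2.68 and Asns, asparagine synthetase, by 2.27 (adjusted p = 3.10e-11 and 7.23e-11). Chac1, which degrades glutathione, fell by 1.91 in activated cells and rose by 1.26 in resting cells (adjusted p = 1.08e-05 and 9.70e-04).

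Sterol synthesis differed from these groups. Of 30 genes of cholesterol and fatty acid synthesis, 23 rose and 4 fell, with a median of 0.38. But in resting cells 27 rose (25.4% over all genes), with a median of 0.62. The change over time was lower in activated than in resting cells in 16 and higher in 5 (background 13.4% and 21.9%), counts that were not recomputed under the alternatives. At 16 h, 18 of them were higher in activated than in resting cells (background 5.56%), and at 2 h 20 were (background 16.0%). Median centring of the Cy3 channel alone left 10 called higher over time, where 5272 of all genes passed, 55.8% of them higher. Mvk, mevalonate kinase, measured 10.69, 10.85, 10.68 and 10.77 at 16 h and 8.95, 9.03, 8.79 and 8.92 at 2 h, a rise of 1.83 (adjusted p = 1.04e-11), against 1.03 in resting cells, and a dimmer probe rose by 1.03. Fdps, a synthase of the isoprenoid branch, rose by 1.10 and 1.21, a difference of -0.11 that did not pass (adjusted p = 0.447). Glycolysis genes were split, with 10 of 27 higher and 11 lower, against 35.5% and 27.3% over all genes. Egln3 entered the test only through activated cells at 2 h, so its part of the count supports nothing. The aldolase Aldoc rose by 1.99 (adjusted p = 3.50e-10), with 3.04 at a dimmer probe, and Pfkfb3, which raises the activator of phosphofructokinase, fell by 1.74 (adjusted p = 5.20e-13), while its resting change was 0.08. Dimmer probes of Pfkfb3 changed by -0.40 and -0.87. Of 30 genes of the respiratory chain, 8 rose and 5 fell, with changes between -0.65 and 0.55.

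Interferon-stimulated genes differed between replicates along with the replicate number. Of 31 tested, 12 rose, 1 fell and 18 did not pass, with a median of 0.49. Without the replicate number as a block, limma called 0 for a difference from the change in resting cells (35.3% over all genes). At an unadjusted p under 0.05 there were 3. That count was not computed with the block, so it does not show that both changes were alike. The adjusted p-values of single genes below also come from the fit without a block, unless another setting is named. With the replicate number as a block, 19 rose and 7 fell, and 10689 of all genes passed, 56.1% of them higher. With the slide as a block, 7 rose and 1 fell, and 9799 of all genes passed, 55.8% of them higher. In 19 genes the 16 h array was higher than the 2 h array of the same number in all 4 pairs, and in 7 it was lower in all 4. Over all tested genes these shares were 40.1% and 32.6%. Irf7, which amplifies the interferon response, measured 11.55, 9.43, 10.08 and 10.06 at 16 h and 9.55, 7.86, 8.13 and 8.80 at 2 h. Replicate 1 was highest and replicate 2 lowest at both times. The groups overlapped, because replicate 2 at 16 h was below replicate 1 at 2 h, and the differences within replicates 1 to 4 were 2.00, 1.57, 1.95 and 1.26. Its rise was 1.69 (adjusted p = 0.0113). Oas1a, an antiviral nucleotide synthetase, rose by 1.29 (adjusted p = 0.00674), again with overlapping groups. Usp18, which dampens interferon signals, rose by 1.36 (adjusted p = 0.0176). It did not pass without replicate 1 at 16 h (0.99), without replicate 2 (1.08) or 3 (1.20) at 2 h, with the slide as a block (1.28) or with median centring (1.30). Cxcl10, an interferon-induced chemokine, was the member that fell, by 2.31 (adjusted p = 0.00192), with 9.34, 7.67, 8.38 and 7.97 at 16 h and 12.04, 9.73, 10.19 and 10.64 at 2 h. Inhba, an activin subunit that is not on this list, measured 10.54, 8.33, 8.95 and 9.37 at 16 h and 11.28, 10.03, 10.30 and 11.30 at 2 h. Its groups overlapped too, and it fell by 1.43 (adjusted p = 0.0104).

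**Figure D4:**
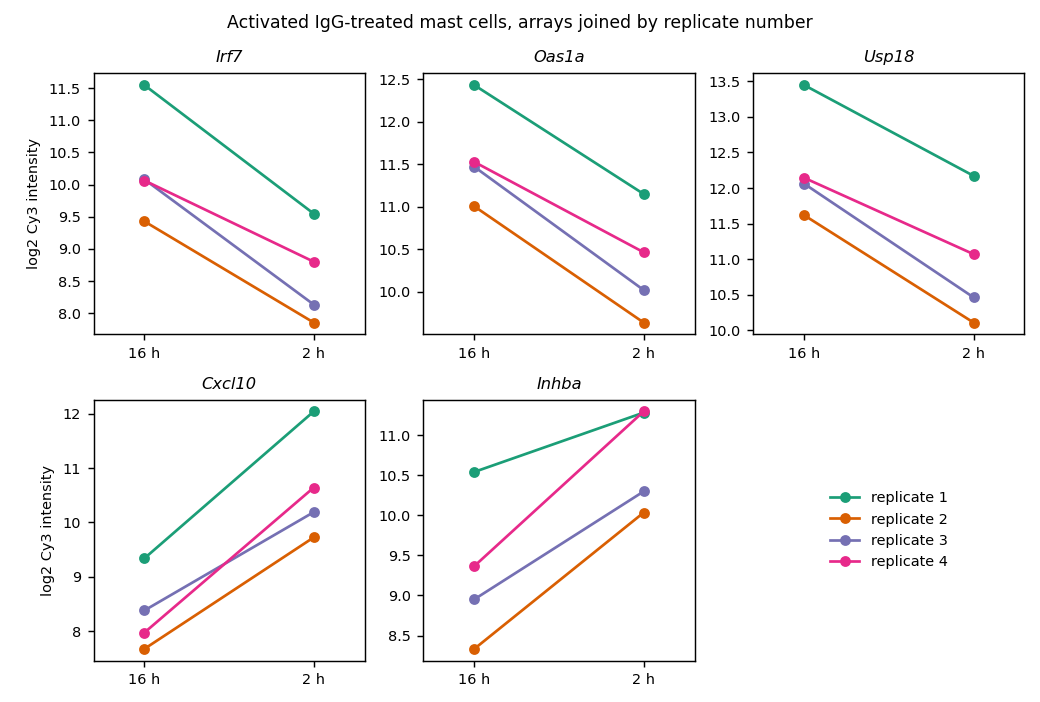
Log2 Cy3 intensity of 5 genes on the arrays of activated cells at 16 h (left) and 2 h (right), joined by replicate number. Irf7, Oas1a and Usp18 are higher at 16 h in every pair, Cxcl10 and Inhba are lower in every pair, and replicate 1 is highest at both times in the 4 genes other than Inhba.

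Some genes rose late in activated cells without a like rise in resting cells. Il15, a cytokine that sustains natural killer and memory T cells, measured 10.26, 10.26, 10.13 and 10.12 at 16 h and 7.61, 7.47, 7.44 and 7.57 at 2 h. All 16 h values were higher, a rise of 2.67 (SE 0.07, adjusted p = 3.85e-14), against 0.33 in resting cells. A dimmer probe of Il15 rose by 1.32. The activated minus resting difference of Il15 was 0.08 at 16 h (adjusted p = 0.522) and -2.26 at 2 h (adjusted p = 1.01e-12). Erg, an ETS transcription factor, measured 12.94, 13.14, 12.91 and 12.94 at 16 h and 10.84, 10.79, 10.67 and 10.71 at 2 h, a rise of 2.23 (adjusted p = 5.30e-14). A dimmer probe of Erg rose by 0.54, and the activated minus resting difference was 0.04 at 16 h and -1.85 at 2 h. Depdc1b, a protein of dividing cells, rose by 3.05 in activated cells and 0.87 in resting cells (adjusted p = 1.28e-14 and 7.26e-08). Its activated minus resting difference was 0.07 at 16 h and -2.11 at 2 h. Other genes ended above the resting level. Apoc2, an apolipoprotein that activates lipoprotein lipase, measured 9.85, 8.18, 8.51 and 9.06 at 16 h and 6.81, 6.81, 6.91 and 7.03 at 2 h. It rose by 2.01 (adjusted p = 1.07e-06), and its activated minus resting difference was 2.23 at 16 h and 0.06 at 2 h. Kcnd2, a potassium channel subunit, rose by 1.36 in activated cells and fell by 1.02 in resting cells (adjusted p = 1.46e-08 and 1.13e-06), and a dimmer probe of it rose by 0.21 in activated cells. Fhdc1, a formin, had the largest positive difference among genes without a provisional name whose activated groups did not overlap, 2.52 (adjusted p = 4.38e-08). It had a small rise of 0.38 in activated cells and a fall of 2.14 in resting cells. That rise did not pass without activated replicate 1 at 2 h (0.28), without replicate 2 at 16 h (0.34), with the slide as a block (0.31) or with median centring (0.36).

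Set beside resting cells at each time, the activated cells differed in 2132 genes at 16 h (13.2%), 902 higher and 1230 lower (5.56% and 7.59%), and in 7318 genes at 2 h (45.1%), 2593 higher and 4725 lower (16.0% and 29.1%). Differences of at least 2-fold numbered 35 higher and 4 lower at 16 h (0.216% and 0.0247%), and 370 higher and 172 lower at 2 h (2.28% and 1.06%). These comparisons share arrays with those above, so their values are given side by side. The activated minus resting difference of Il13 was 0.05 at 16 h and 1.99 at 2 h (adjusted p = 0.675 and 1.64e-12). Ccl1 was 0.88 higher at 16 h and 5.59 higher at 2 h (adjusted p = 4.26e-05 and 2.36e-15). Hdc was 1.09 higher at 16 h and 1.51 higher at 2 h (adjusted p = 6.98e-05 and 1.44e-07). Tnfrsf9 was 2.67 higher at 16 h and 1.14 higher at 2 h (adjusted p = 4.50e-10 and 2.21e-07). Kit differed by 0.08 at 16 h and by -0.90 at 2 h (adjusted p = 0.566 and 9.01e-08).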

How the data were processed

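The authors hybridised two-colour Agilent 4x44K mouse arrays, and per the file headers Feature Extraction 9.1.3.1 gave the deposited spot intensities, which were not yet normalized between arrays. Here limma 3.58.1 in R 4.3.3 corrected background (normexp, offset 50), applied loess within and Aquantile between arrays, and the log2 Cy3 intensity was kept. Cy5 enters only these steps. Control and outlier spots were left out, and probes well above background on 3 of 4 arrays of a group were kept. The brightest probe stands for a gene. A fit of 4 group means over 16 arrays gave moderated tests with Benjamini-Hochberg adjustment, and it was tested on simulated data. Deviations of same-numbered activated arrays at 16 h and 2 h correlated at 0.467, 0.613, 0.132 and 0.264, so the numbers of the titles pair the samples. Named genes are the 15 largest rises and falls, the 8 largest differences from resting cells in each direction, up to 5 members a list, and genes fixed by name. The rises, falls and differences were ranked among called genes without a provisional name whose activated groups did not overlap. Members and lists were chosen with earlier results of these data known. Alternatives covered background, scaling, filters, probes, slide, replicate block and left-out replicates. Promoters are RefSeq's (GRCm38.p6), and Wilson intervals cover counting error only. Some genes are not reported here.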

Additional observations from a re-analysis of the deposited data

Results flagged for a closer look

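Of 101 genes described above, 78 changed over time by a different amount in activated than in resting cells at an adjusted p under 0.05 in limma's test of that difference, 30 in the positive and 48 in the negative direction. Many of these genes were chosen for a large change or for this very difference, so their count is not read against the 35.3% of all genes tested. The values that follow are the log2 change in activated cells minus that in resting cells. Among the positive ones, the difference was Fhdc1 2.52, Kcnd2 2.38, Il15 2.34, Depdc1b 2.19, Apoc2 2.17, Erg 1.89, Tnfrsf9 1.53, Fos 1.22, Fcgr3 1.14, Plau 1.07, Mcm7 1.00 and Ndst2 0.98. Further positive values were Kit 0.98, Unc13d 0.94, Mvk 0.80, Aldoc 0.76, Mcoln1 0.75, Hpgds 0.60, Mcm10 0.58, Manba 0.58, Ccl2 0.58, Ms4a2 0.55, Osm 0.55 and Aurkb 0.54. The remaining ones were Ccna2 0.54, Socs1 0.52, Tk1 0.45, Mki67 0.37, E2f2 0.26 and Il18r1 0.24.

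Among the negative ones, the difference was Crtam -4.94, Ccl1 -4.70, Csf2 -3.70, Rgs16 -3.68, Egr3 -3.53, C5ar2 -3.38, Ptpn22 -3.20, Chac1 -3.17, Errfi1 -2.98, Il2 -2.80, Fst -2.79 and Il33 -2.70. Further negative values were Sphk1 -2.69, Gadd45b -2.51, Ptgs2 -2.43, Nfil3 -2.43, Nr4a1 -2.24, Hbegf -2.18, Xcl1 -2.18, Egr2 -2.16, Nab2 -2.09, Il3 -2.05, Tnip3 -2.02 and Il13 -1.93. Smaller ones were Pfkfb3 -1.82, Vegfa -1.76, Dusp2 -1.74, Il4 -1.60, Ccl7 -1.57, Ccl4 -1.56, Tnf -1.34, Nfkbia -1.32, Tfrc -1.28, Srxn1 -1.20, Hmox1 -1.18 and Hspa1a -1.17. Further negative values were Tnfsf10 -1.14, Spry2 -1.10, Fyn -1.08, Orai1 -1.08, Relb -1.07, Stx6 -1.02, Asns -1.01, Tnfsf14 -0.97, Havcr2 -0.92, Phgdh -0.71, Pim2 -0.43 and Stx11 -0.30. In resting cells Csf2 and Il2 were not above background on any array and Il3 and Xcl1 on only 1, at 2 h. Il33 was not above background at 16 h in either condition, nor was Fst in resting cells at 16 h. The differences of these 6 genes are set against signals at background, so they describe the fit and do not measure a size. In resting cells at 16 h, C5ar2 was above background on 2 of 4 arrays and Ptgs2 and Tnip3 on 1 of 4. The sizes of their differences are uncertain too. Csf2, Il2, Il3 and Xcl1 entered the test only through activated cells at 2 h, so their calls support nothing.

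In 12 of 202 groups of activated arrays, 1 array lay further from the others than Dixon's test allows. Chance alone does so in about 1 of 20 groups. These log2 intensities were C5ar2 in replicate 2 at 16 h (6.94), Ccl2 in replicate 2 at 16 h (15.48), Cma1 in replicate 3 at 2 h (16.21), Egr3 in replicate 4 at 2 h (10.05), Erg in replicate 2 at 16 h (13.14), Hpgds in replicate 1 at 2 h (10.40). The others were Il18r1 in replicate 1 at 2 h (8.34), Il33 in replicate 1 at 2 h (9.49), Mcm10 in replicate 1 at 2 h (9.40), Nfil3 in replicate 2 at 16 h (10.73), Orai1 in replicate 3 at 16 h (9.63), Ptpn22 in replicate 4 at 2 h (12.26).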

How the results depend on the processing

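The totals over all genes, the list counts for activated cells over time and the changes of named genes in activated cells were recomputed under up to 27 alternatives. For the difference from resting cells, only the total and the genes chosen for the largest differences were recomputed. List counts of that difference and the comparisons with resting cells at each time were not. Of the 3 totals over all genes, each moved by over 1.5 times only with the Cy3 channel alone and median centring, which gave 5272 genes in activated cells, 2701 in resting cells and 710 for the difference, and the cause was not tested. With the replicate block these counts were 10689, 8715 and 6447, and with the slide as a block 9799, 8319 and 6028. Leaving out 1 array at a time gave 9668 to 9896 in activated cells, 7350 to 7862 in resting cells and 5294 to 5903 for the difference. Of 64 counts within gene lists, 29 moved by over 1.5 times with median centring and 18 under at least 1 other alternative. The filter on all 16 arrays, which tests fewer genes, left 3 type 2 cytokines and 6 growth factors lower. The replicate block changed no call of a named gene, but it moved interferon-stimulated genes to 19 higher and 7 lower, and chemokines to 5 higher and 15 lower. Of 4135 recomputed values of named genes, 4049 kept direction and call, 68 lost the call, 3 gained it and 15 changed sign. Most sign changes were in genes that did not pass the test. Agilent's processed signal gave -0.043 for Rpl32, -0.16 for Cpa3 and -0.066 for Cma1, and median centring gave -0.027, -0.18 and -0.092. Cpa3 was -0.017 without background subtraction and with Cy3 quantile scaling, and -0.023 with the slide block. Srebf2 was -0.025 with the filter on all 16 arrays, and Slc11a2 was -0.13 as a mean of probes. Leaving out 1 array at a time gave -0.037 to 0.21 for Cpa3 and -0.077 to 0.076 for Fcer1a. Their causes were not tested. The number of arrays limits the precision, and dim genes near the offset have compressed changes.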
